A study of Mus musculus with 8 samples.

Results

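The miRNA content of resting dendritic cells was read from the 4 untreated arrays of a set of 8, all on 1 slide. The cells came from bone marrow of C57BL/6 mice, an inbred laboratory strain, and were expanded in GM-CSF (40 ng/ml), the cytokine that turns marrow progenitors into dendritic cells. Loose cells were harvested on day 9 and kept overnight without CpG. The labels call the control agent PBS and give no genetic change, sort or age. They number the replicates 1 to 4 without saying whether each came from its own mouse or culture, so every SD below covers the spread between these 4 arrays, which may be technical. The CpG arrays were not analysed here.

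The described set consists of the 179 mouse miRNAs that the scanner software flagged as detected on all 4 untreated arrays, of 567 mouse miRNAs in the files used here (31.6%). Values are shares, meaning the total signal of a miRNA, summed over its probes, in percent of the summed signal of the 567 mouse miRNAs on the same array. That sum was 70678, 70297, 82277 and 71742 intensity units on replicates 1 to 4. A share of signal is not a share of molecules, because probes bind with different strength, and a probe can also catch close relatives of its target. The ranks below are therefore ranks of signal. With a single group there was nothing to test, and no p-value is given.

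A miRNA is an RNA of about the length of the strands printed below that guides Argonaute proteins to messenger RNAs, which are then repressed. It pairs mainly through its seed, here bases 2 to 8 from the 5′ end, so miRNAs with the same seed form a family with shared potential targets. Most are cut as a duplex from a hairpin, of which the guide arm is usually kept and the other, the star arm, is mostly lost. In blood cells the miRNA set follows lineage: miR-223 marks granulocytes, monocytes and their relatives, miR-142 marks all haematopoietic cells, and miR-155 and miR-146a are known to be switched on by Toll-like receptor signals.

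The sequences of the leading guide strands are shown because they carry most of the signal described below. They were taken from the RefSeq table of GRCm38.p6, 5′ to 3′, with the seed in capitals, and begin with the brightest miRNA, miR-21, followed by other leading miRNAs that stand alone among the detected ones in their seed.
miR-21: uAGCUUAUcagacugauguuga
miR-22: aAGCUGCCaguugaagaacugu
miR-24: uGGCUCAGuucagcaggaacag
miR-223: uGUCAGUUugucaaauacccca
miR-142-3p: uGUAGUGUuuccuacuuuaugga
miR-342-3p: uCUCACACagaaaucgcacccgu
miR-210: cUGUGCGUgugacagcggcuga
miR-1224: gUGAGGACuggggagguggag
miR-155: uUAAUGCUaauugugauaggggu

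The second set shows the leading members of 4 families, which share the capitals and differ in the lower case letters.
let-7f: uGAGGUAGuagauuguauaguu
let-7a: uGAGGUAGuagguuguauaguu
let-7i: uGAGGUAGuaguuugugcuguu
let-7d: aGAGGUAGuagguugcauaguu
let-7g: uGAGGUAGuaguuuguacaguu
miR-15b: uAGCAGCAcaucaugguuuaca
miR-16: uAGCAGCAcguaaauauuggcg
miR-15a: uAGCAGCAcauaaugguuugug
miR-29a: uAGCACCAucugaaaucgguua
miR-29b: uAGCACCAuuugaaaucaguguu
miR-29c: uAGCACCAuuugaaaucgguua
miR-27a: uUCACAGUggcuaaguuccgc
miR-27b: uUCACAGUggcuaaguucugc

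miR-21, a miRNA widely found in myeloid cells and in tumours, was the brightest by far. Its share was 26.2%, 24.6%, 25.1% and 25.7% on replicates 1 to 4, or 25.4% ± 0.688 (SD, n = 4). Its mature strand lies at chr11:86584120-86584141 on the minus strand, within the span of the protein-coding gene Vmp1. The runner-up was miR-720, an entry that has since been withdrawn as a fragment of a transfer RNA, with 15.8%, 14.0%, 13.1% and 14.3%, or 14.3% ± 1.13 (SD, n = 4). The ranges of both entries do not overlap each other or any other miRNA. With miR-720 left out of the sum, the share of miR-21 was 29.7% ± 1.14 (SD, n = 4).

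After this pair the shares fell in small steps. miR-22, cut from a non-coding transcript at chr11:75463772-75463793 (plus strand), had 4.60%, 3.66%, 4.07% and 3.44%, or 3.94% ± 0.513. miR-24, which RefSeq places both in Aopep at chr13:63301251-63301272 and at chr8:84208875-84208896, had 3.04% ± 0.261. miR-23a, its neighbour on chromosome 8 at chr8:84208563-84208583, had 2.81% ± 0.151. let-7f had 2.61% ± 0.175, miR-29a 2.51% ± 0.289, let-7a 2.27% ± 0.179 and miR-27a 2.15% ± 0.317 (SD, n = 4 each).

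The blood cell miRNAs stood next to them. miR-223, on the X chromosome at chrX:96242884-96242905 within the lncRNA F630028O10Rik, had 2.24%, 2.93%, 2.24% and 2.53%, or 2.49% ± 0.327. miR-142-3p at chr11:87756903-87756925 had 1.97%, 2.02%, 2.21% and 1.93%, or 2.03% ± 0.124. Its opposite arm, miR-142-5p, had 0.347% ± 0.0246 (SD, n = 4). Every value of the 3p arm was above every value of the 5p arm, as signal of different probes.

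Ranks 11 to 20 were close together. They were taken by miR-15b (2.03% ± 0.428), miR-142-3p, miR-16 (1.78% ± 0.209), let-7i (1.77% ± 0.115), miR-15a (1.58% ± 0.237), miR-342-3p (1.57% ± 0.0170), miR-210 (1.53% ± 0.593), let-7d (1.53% ± 0.0451), miR-29b (1.47% ± 0.206) and miR-1224 (1.43% ± 0.412; SD, n = 4 each). miR-342-3p lies within Evl, and miR-1224 is a mirtron of Vwa5b2, an intron that is spliced out whole as a hairpin. miR-210, known as a target of the hypoxia factor HIF, had 0.689% on replicate 1 against 1.76%, 1.61% and 2.07% on replicates 2 to 4. Among the 19 neighbouring pairs in the first 20 ranks, only 4 kept their order on all 4 arrays, so that most single steps in rank were smaller than the spread.

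**Figure D1:**
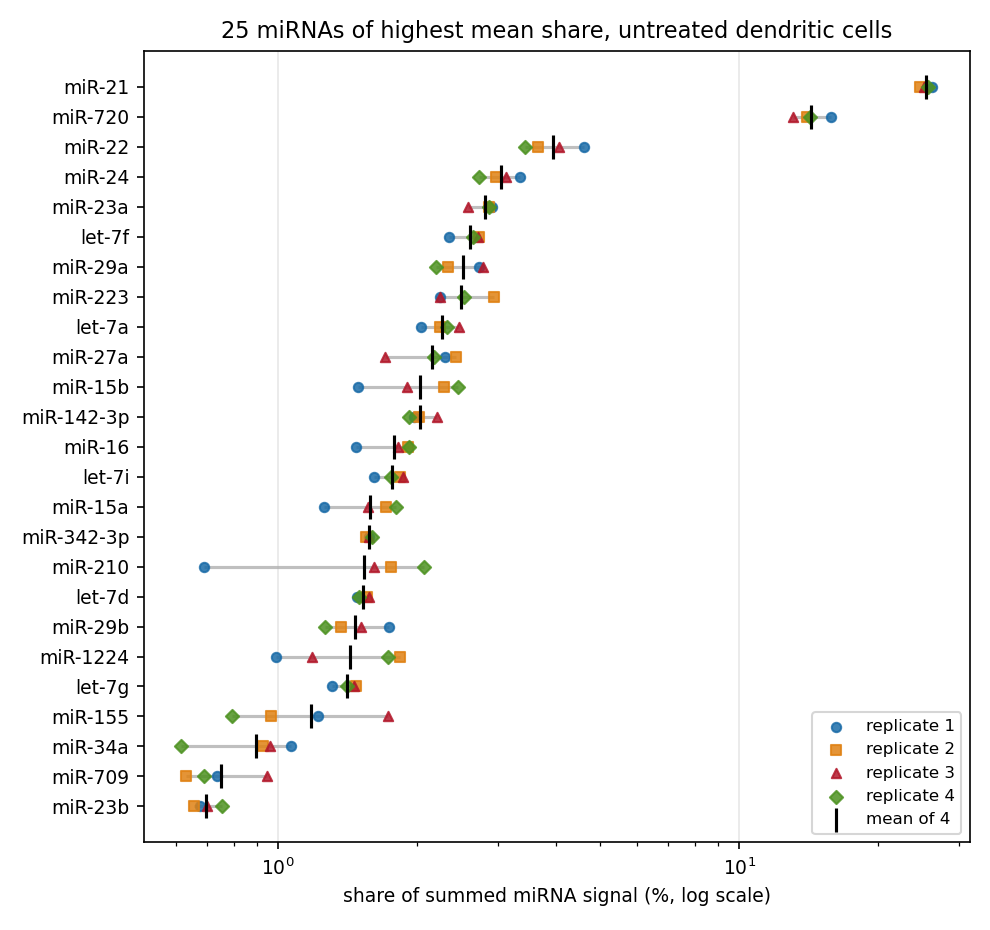
Share of summed mouse miRNA signal (percent, log axis) of the 25 miRNAs of highest mean share, with 1 marker for each replicate, a grey line for the range and a black tick for the mean of 4. miR-21 and miR-720 stand apart at 25.4% and 14.3%, the next 20 lie between 1.18% and 3.94%, and miR-210 has a low value on replicate 1.

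The signal was concentrated in few miRNAs. The 10 of highest mean share held 64.6%, 60.8%, 59.9% and 60.9% on replicates 1 to 4, or 61.5% ± 2.07 (SD, n = 4). The first 20 held 78.3% ± 1.03, the first 50 held 92.7% ± 0.646 and the first 100 held 97.8% ± 0.217. By mean share, 6 miRNAs were enough for 50% of the signal, 18 for 75%, 39 for 90% and 137 for 99%. Counted on each array by its own order, 50% was reached with 4 to 6. Of the first 20 by mean, 17 were among the first 20 on all 4 arrays, and of the first 10, 8 were among the first 10.

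Below the leaders came a long tail. There were 22 members with a mean share of 1% or more, 54 from 0.1% to 1%, 92 from 0.01% to 0.1% and 11 under 0.01%. The median member had 0.0724%. miR-21 had 7095 times the signal of miR-501-3p, the dimmest member. That ratio is imprecise, because miR-501-3p read only 2.42, 3.54, 1.99 and 2.48 units on replicates 1 to 4. The negative control feature read more on each array, with 13.8, 7.08, 11.7 and 7.17 units. Of the 179 members, 132 were read by 2 probes, 5 by 3 and 42 by 4, and in the first 20 the brightest probe gave between 53.2% and 94.4% of a miRNA's probe sum. For miR-21 the probes read 22891 and 4092 units on average, which shows how far the probes of a single miRNA can differ. No mouse spot was saturated, and the brightest read 28100 units.

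**Figure D2:**
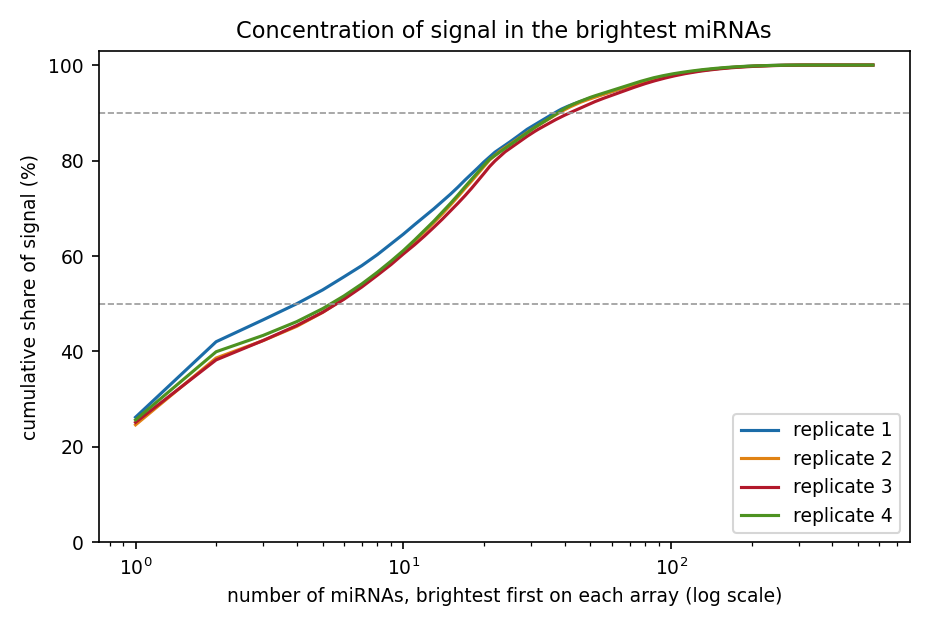
Cumulative share of mouse miRNA signal (percent) against the number of miRNAs counted from the brightest down (log axis), with 1 line for each replicate and dashed lines at 50% and 90%. The 4 lines run close together and pass 50% at 4 to 6 miRNAs and 90% at 37 to 42.

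Families with a shared seed were formed from the 145 members (81.0%) whose mature sequence matched the RefSeq table, which together held 81.6% of the signal. These fell into 108 seeds. Only 20 seeds were shared by at least 2 matched members, and those 57 members held 30.8% ± 1.22 of the signal (SD, n = 4). Detected miRNAs without a match were left out, among them miR-23b (0.697%), miR-30d (0.197%) and miR-30b (0.171%). miR-23a therefore counts as a lone seed here, and the shares of families with unmatched relatives are too low. The largest part of the other matched signal was that of miR-21 (25.4%), which had no detected relative of its seed. The next were miR-22 (3.94%) and miR-24 (3.04%).

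The let-7 family, known to restrain growth genes and to be blocked by LIN28 in stem cells, was the largest. All 9 of its listed guide arms were detected, and together they held 9.93%, 11.1%, 11.3% and 11.1%, or 10.9% ± 0.622. The brightest, let-7f, made up 24.0% of the family. let-7i and let-7d followed let-7a, then came let-7g (1.41% ± 0.0776), let-7c (0.424% ± 0.0401), let-7b (0.407% ± 0.0187), let-7e (0.302% ± 0.0869) and miR-98 (0.133% ± 0.0125; SD, n = 4 each). Counting positions from 1 at the 5′ end of let-7a, let-7f differs from it by G12A alone, let-7c by A19G and let-7e by U9G. How far a probe for one of them also reads the others was not tested.

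The miR-15/16 family, known as repressors of cell cycle genes and of BCL2, held 4.33%, 6.07%, 5.41% and 6.32%, or 5.53% ± 0.890. Its members were miR-15b at chr3:69009775-69009796 within Smc4, miR-15a at chr14:61632075-61632096 within the lncRNA Dleu2, miR-16, which is encoded beside both, and miR-322 (0.128% ± 0.0255). Replicate 1 was the lowest for each of these 4. Of 2 further listed members, miR-195 was detected on 2 arrays and miR-497 on none.

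The miR-29 family, known to target collagens and DNA methyltransferases, held 5.19%, 4.26%, 4.80% and 4.05%, or 4.57% ± 0.518, with miR-29a at 54.9% of it. miR-29c (0.592% ± 0.0880) differs from miR-29a by C10U alone. The miR-27 pair held 2.53% ± 0.349, and miR-27a made up 85.1% of it. The mature strands of that pair differ by C19U. Here the strand from chromosome 8 had more signal than the strand from chromosome 13 on every array.

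Smaller families followed. The seed of miR-17 and its relatives, which are known to be driven by MYC and to favour proliferation, had 6 members and 1.22% ± 0.147. Of these, miR-20a (0.457% ± 0.0292) and miR-106b (0.374% ± 0.0681) were brightest, while miR-17 itself had 0.0156% ± 0.00169. miR-103 and miR-107 held 1.18% ± 0.0707 and differ by G22C. The miR-26 pair held 0.851% ± 0.125, the miR-19 pair 0.782% ± 0.0302 and the miR-146 pair 0.728% ± 0.0506 (SD, n = 4 each).

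**Figure D3:**
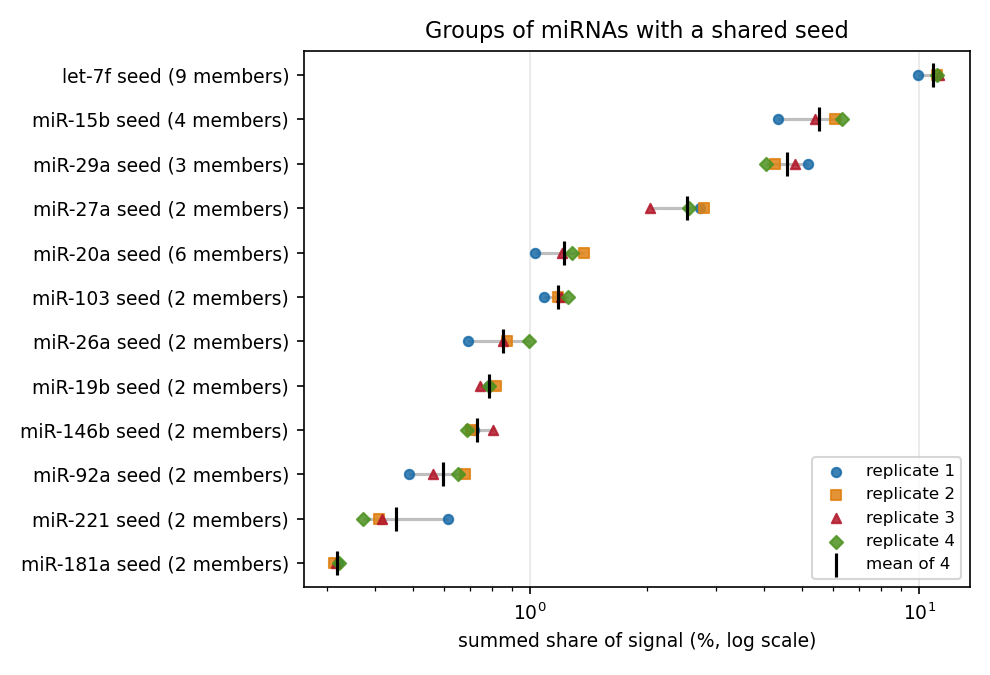
Summed share of signal (percent, log axis) of the 12 brightest groups with a shared seed among detected miRNAs matched to RefSeq. Each is named by its brightest member, with 1 marker for each replicate, a grey line for the range and a black tick for the mean. Unmatched relatives such as miR-23b are not included. The let-7 group leads at 10.9%, and the miR-15 group at 5.53% has its lowest value on replicate 1.

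Some features of the strands were shared across families. Of the 145 matched members, 73 (50.3%) began with U, the base that Argonaute's pocket is known to prefer, against 40.9% of the 1679 mouse mature strands in the table. Strands that began with U held 79.0% of the matched signal. A large part of that is miR-21, which begins with U and alone had 25.4% of all mouse miRNA signal. The median GC content was 47.8% against 52.2% in the table. Lengths ran from 19 to 24 bases, and 79 strands (54.5%) had 22.

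Many miRNAs are cut from a common transcript, so members were also grouped by position. On the array's own annotation (mm9), 560 of the 567 miRNAs had a position, and those on 1 strand with gaps of at most 10 kb were joined, both arms of a hairpin included. This gave 115 groups, of which 35 had at least 2 detected entries. Those 99 entries held 65.3% ± 0.939 of the signal (SD, n = 4), led by the arms of miR-21. Much of this comes from single hairpins that count because both arms were detected. Examples are miR-21 (25.4%), miR-22 (3.98%), miR-142 (2.38%) and miR-342 (1.59%). It is therefore not the share of miRNAs cut together with another hairpin. The annotation gives each miRNA a single position, so a miRNA encoded at several places is counted at 1 of them only.

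Several groups had most of their entries detected. The group of let-7f, let-7a and let-7d on chromosome 13 had 4 of 6 and held 6.42% ± 0.377. The group of miR-23a and miR-27a on chromosome 8 had 3 of 4 and held 4.98% ± 0.463. That of miR-24, miR-23b and miR-27b on chromosome 13 had 4 of 5 and held 4.13% ± 0.261 with miR-24 counted there. The miR-17-92 group (mm9 chr14:115442915-115443718), a single transcript known to promote proliferation of blood cells, had 8 of 10 entries detected and 1.79% ± 0.108. Within it miR-19b had 0.671% ± 0.0257 and miR-20a 0.457% ± 0.0292, but miR-18a had 0.0880% ± 0.0144. The related group of miR-106b, miR-93 and miR-25 had 3 of 5 and held 0.780% ± 0.146, and the group of let-7e, miR-125a and miR-99b on chromosome 17 had 4 of 5 and held 0.496% ± 0.121. On the X chromosome, 7 of 9 entries around miR-500, miR-532 and miR-362 were detected, with 0.482% ± 0.0554 together (SD, n = 4 each).

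Other large groups gave almost no signal. Of 50 entries in the longest run of the imprinted Dlk1-Dio3 region (mm9 chr12:110947280-110981994), only miR-494 and miR-485* were detected on all 4 arrays, and of 20 entries in the neighbouring run (mm9 chr12:110801929-110833597) none was. In all, chromosome 12 had 6 of 82 entries detected. A run of 21 entries around miR-743a and miR-883a (mm9 chrX:64029935-64067184), and the miR-290 group on chromosome 7 with 14 entries, known from embryonic stem cells, had no entry detected on all 4. In 49 of the 115 groups no entry was detected on all 4. Chromosome 11, which carries miR-21, miR-22 and miR-142, had 22 of 38 entries detected and held the largest share of the signal of any chromosome, 33.5%.

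Detection was also counted in lists of miRNAs known from several lineages. Over all 567 mouse miRNAs, 31.6% were detected on all 4 arrays and 62.1% on none. The list counts here and below have to be read beside these shares. With so many absent over all, a short list without a detected entry says little alone. All 3 myeloid entries (miR-223 and both arms of miR-142) were detected and held 4.58% to 5.32%. No erythroid entry (miR-451, miR-144, miR-486; 0 of 3), no endothelial one (miR-126-3p and miR-126-5p; 0 of 2), no stromal one (miR-143, miR-145, miR-199a-5p, miR-199b, miR-214; 0 of 5), no muscle one (0 of 4) and not the liver's miR-122 (0 of 1) was detected on any array. The summed shares of these lists stayed at or below 0.00962% on every array. The lists mark lineages, and none of them separates dendritic cells from other myeloid cells, so the labelled cell type was not tested beyond that.

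Lymphoid entries were mixed. miR-150, the miRNA of mature B and T cells, was not detected on any array, nor were miR-181c and miR-181d. miR-342-3p was among the first 20, and miR-181a had 0.187% ± 0.0108 and miR-181b 0.131% ± 0.00897 (SD, n = 4 each). Of 10 epithelial entries only miR-200b was detected on all 4, at 0.0118% ± 0.00334, and of 4 neuronal ones only miR-128, at 0.0292% ± 0.00441. miR-200b read 6.34, 9.22, 7.57 and 11.4 units, against 13.8, 7.08, 11.7 and 7.17 for the negative control feature. Of 15 pluripotency entries none was detected on all 4 and 3 were on some, led by miR-290-5p. Among 9 miRNAs of the Hox clusters and of progenitors, miR-125a-5p (0.110% ± 0.0187), miR-10a (0.0966% ± 0.0192), miR-99b (0.0742% ± 0.0189) and miR-125b-5p (0.0103% ± 0.000989) were detected, while miR-10b, miR-196a, miR-196b, miR-99a and miR-100 were not.

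miRNAs known to respond to Toll-like receptor signals were already measurable without CpG, with 10 of 11 detected on all 4 and only miR-187 on none. miR-155, which is cut from the Bic transcript at chr16:84714143-84714165, had 1.22%, 0.963%, 1.73% and 0.794%, or 1.18% ± 0.410. Its highest array was thus more than 2 times its lowest. miR-146b had 0.617% ± 0.0376 and miR-146a, known to damp signalling through IRAK1 and TRAF6, had 0.0744%, 0.133%, 0.150% and 0.0875%. miR-221 had 0.346% ± 0.102, miR-222 0.107% ± 0.0224, miR-212 0.0552% ± 0.00466, miR-132 0.0290% ± 0.0110 and miR-147 0.0298% ± 0.00771 (SD, n = 4 each).

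Of the 6 entries listed as regulators of dendritic cells, all were detected, with 30.4% ± 1.17 together, most of it miR-21. miR-34a, known as a target of p53, had 1.07%, 0.926%, 0.961% and 0.617%. miR-148a (0.0412% ± 0.00395), miR-148b (0.0468% ± 0.00105) and miR-152 (0.0317% ± 0.00424), known to restrain antigen presentation in dendritic cells, were in the lower part of the ranking. All 5 entries of the miR-30 family were detected, with 0.568% ± 0.0281 together, led by miR-30d (0.197% ± 0.0299) and miR-30b (0.171% ± 0.00662; SD, n = 4 each). Among 8 entries linked to other RNA classes, miR-720, miR-689 (0.300% ± 0.0905), miR-801 (0.0178% ± 0.00361) and miR-712 (0.0164% ± 0.00176) were detected, and the list held 14.6% ± 1.11 in all.

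**Figure D4:**
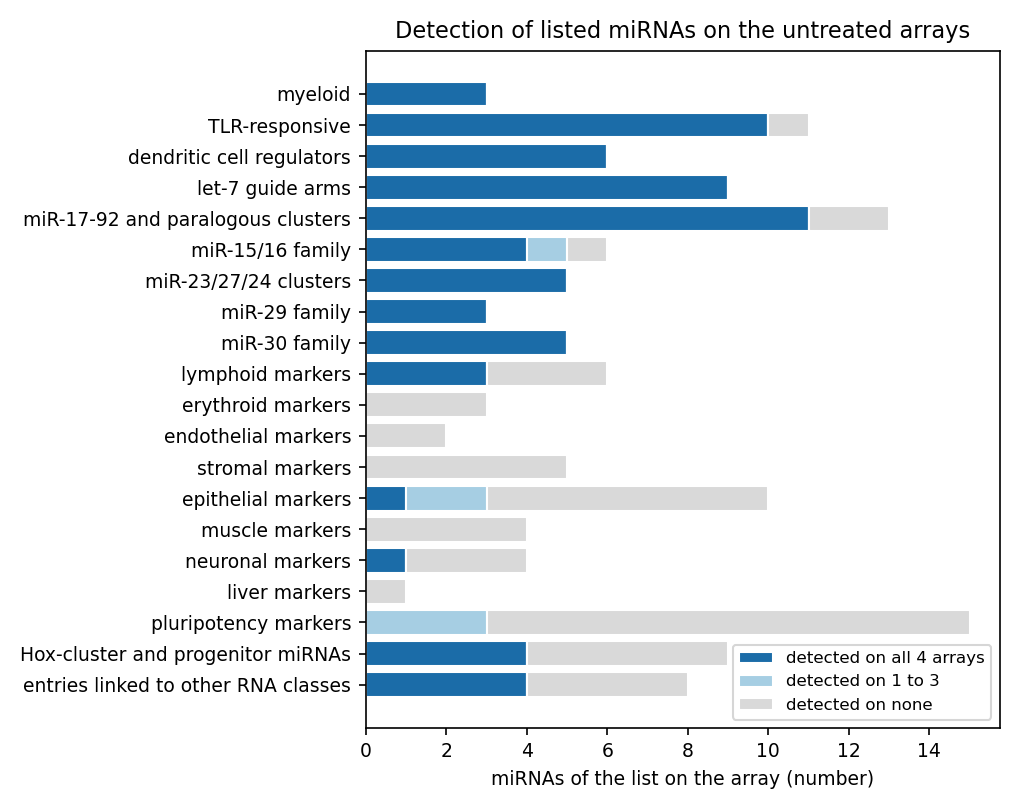
Number of miRNAs of each of the 20 lists with a value here, split by detection on all 4 untreated arrays, on 1 to 3 or on none. The lists of myeloid miRNAs, dendritic cell regulators and let-7 guide arms are filled completely, and those of erythroid, endothelial, stromal, muscle and liver miRNAs are empty.

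Star arms were seldom detected. Of 114 star entries, 24 were detected on all 4 arrays (21.1%), against 155 of 453 other entries (34.2%), and the 24 held 0.917% of the signal. In the 114 pairs of a star with its partner arm, both were detected on all 4 in 17, the partner alone in 42, the star alone in 7 and neither in 48. In 12 of the 17 the partner was the brighter on all arrays.

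In 11 of the 24 pairs with a star detected on all 4 arrays, the star had the higher signal on every array. miR-877*, the 3p arm of a mirtron, had 0.105%, 0.0904%, 0.236% and 0.0881%, against 0.0200% ± 0.000735 for miR-877. miR-467a* had 0.0989% ± 0.0379 and miR-467b* 0.0742% ± 0.0326, while miR-467a was detected on no array and miR-467b on 3. miR-674* had 0.0512% ± 0.0139 against 0.00546% ± 0.00226, and miR-17* had 0.0336% ± 0.00141 against 0.0156% ± 0.00169. miR-9* (0.0543% ± 0.0167) and miR-9 (0.0455% ± 0.0174), and miR-140* (0.132% ± 0.00826) and miR-140 (0.136% ± 0.00507), were close (SD, n = 4 each). These are signals of different probes, so an order between arms is not an order of molecules.

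Detection was more frequent among entries with low numbers, which are given roughly in the order of naming. Of 201 entries numbered up to 199, 96 were detected on all 4 (47.8%), against 36 of 136 (26.5%) from 200 to 399, 22 of 111 (19.8%) from 400 to 599 and 24 of 118 (20.3%) from 600 to 999.

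Little signal lay outside the detected set. The 352 mouse miRNAs detected on no array held 0.202% of the signal together, and the 36 detected on 1 to 3 arrays held 0.230%. The number detected per array was 192, 203, 191 and 193. The dimmest members were miR-501-3p (0.00358%), miR-301b (0.00432%), miR-674 (0.00546%), miR-191* (0.00591%) and miR-744 (0.00719%). All of them read less than the negative control feature on each array, with 1.79 to 6.08 units against 7.08 to 13.8. The brightest miRNAs just outside, detected on 3 arrays, were miR-290-5p (0.0130%), miR-34b-3p (0.0122%), miR-466d-3p (0.0120%), miR-211 (0.0115%) and miR-467b (0.00802%). The dimmest members had less signal than these, so the flag is not a plain threshold on the share.

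The spread between arrays was small for bright miRNAs and larger for dim ones. The coefficient of variation (CV, the SD in percent of the mean) had a median of 14.9% over the 179 members, with quartiles of 8.64% and 29.4%. It was 10.0% for members of 1% and more, 11.4% from 0.1% to 1%, 20.1% from 0.01% to 0.1% and 21.8% below. The error that the software computed from the spots of a single array had a median of 8.87%. The CV exceeded the member's own error in 115 of the 179. Below 0.01% it did so in 4 of 11, where the median error was 25.1%. Among members of at least 0.1%, the steadiest were miR-342-3p (CV 1.08%), miR-103 (2.45%), miR-21 (2.71%), let-7d (2.95%) and miR-130b (3.65%). The least steady were miR-877* (54.9%), miR-574-3p (44.1%), miR-466g (43.8%), miR-466f-3p (41.2%) and miR-574-5p (40.5%).

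The arrays differed from each other in a patterned way. Across the 179 members, which are not independent replicates, log2 shares correlated with a Pearson r of 0.995 between replicates 2 and 4 and 0.974 between replicates 3 and 4, with the other pairs in between. No member differed more than 2-fold between replicates 2 and 4, but 31 did between replicates 3 and 4.

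A set of 35 members was higher on replicate 3 than the mean of the other 3 arrays by over 0.5 in log2, with a median of 0.91 and a range of 0.51 to 1.61, against a median of 0.00 over all 179. These were chosen for that difference, so it is a description. All but miR-155 had a mean share under 0.2%. The set took in all 12 detected miRNAs of the miR-297, miR-466, miR-467 and miR-669 groups, many of which lie in an intron of Sfmbt2, and these summed to 0.716%, 0.591%, 1.21% and 0.515%. It also held 10 of the 24 detected star arms, both arms of miR-574, miR-197, miR-207 and miR-468. miR-574-3p, for example, had 0.153%, 0.143%, 0.299% and 0.127%, and miR-197 had 0.0524%, 0.0460%, 0.157% and 0.0559%.

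In 27 of the 35 the order of the arrays was replicate 3, 1, 2, 4 from high to low, an order found in 33 of all 179 members. The same order was seen in a miRNA of a mouse gammaherpesvirus, mghv-miR-M1-2, whose probe read 21.4, 19.3, 41.2 and 18.1 units. The negative control feature read 13.8, 7.08, 11.7 and 7.17 units. The part of either in the result was not tested. Within the slide row shared by replicates 2 and 3, all 35 were higher on replicate 3, by a median of 1.00 in log2. The choice of the 35 nearly fixes that count, since replicate 2 is among the arrays they were chosen against. In the row of replicates 1 and 4, 31 of 35 were higher on replicate 1, by a median of 0.52. That comparison was not counted over all 179 members. As shares, replicate 1 was the lowest array in 67 of the 179 and replicate 4 in 61. The 12 miRNAs of the Sfmbt2-related groups were all highest on replicate 3 without scaling and with 75th percentile or quantile scaling too, and 11 of them were after normexp background correction. Their median log2 excess on replicate 3 was 1.00 as shares and 0.28 after normexp, and that of the 35 was 0.91 and 0.19. Of the 35, 34 were highest on replicate 3 as shares, 30 with 75th percentile scaling, 33 with quantile scaling and 28 after normexp. The 35, which include the 12, were chosen on these same arrays, so such counts describe the set and do not test it.

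Strands of this set are shown for their base make-up, with CUCC and UGUGUG in capitals, the letters searched on the RNA strand as printed.
miR-877*: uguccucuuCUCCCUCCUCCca
miR-207: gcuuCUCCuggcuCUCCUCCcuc
miR-483*: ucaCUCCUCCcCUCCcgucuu
miR-574-5p: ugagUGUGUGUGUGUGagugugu
miR-574-3p: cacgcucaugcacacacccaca

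CUCC occurred in 6 of the 18 members of the set that matched RefSeq (33.3%), in 12 of the 127 other matched members (9.45%) and in 12.8% of all 1679 mature strands. UGUGUG occurred in 2 of 18 (11.1%), in 1 of 127 (0.787%) and in 1.67% of all. Both motifs were picked after the set had been seen, the counts are small, and miR-574-3p holds neither. Between the GC content of a strand and an array's deviation from the others, Pearson r lay between -0.116 and 0.022 over the 4 arrays, across 145 members. Across the 66 matched members of at least 0.1%, it lay between -0.227 (replicate 1) and 0.067 (replicate 4).

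By the same threshold of 0.5 in log2 against the mean of the others, replicate 4 had 39 members lower and 9 higher. Replicate 1 had 18 lower and 13 higher, and replicate 2 had 10 lower and 5 higher. The mean of the others includes replicate 3. All 10 lower on replicate 2 and most of the 39 lower on replicate 4 belong to the set chosen as higher on replicate 3. miR-574-5p, for example, had 0.111% on replicate 2 and 0.110% on replicate 4, against 0.233% on replicate 3. These are thus not fully separate from the high values on replicate 3. Still, replicate 4 was the lowest array in 29 of the 35 as shares. miR-9, for example, had 0.0572%, 0.0373%, 0.0626% and 0.0251% on replicates 1 to 4. Others low on replicate 4, such as miR-34a and miR-132, are outside the set. How far replicate 3 alone gives the low values on replicate 4 was not tested. As shares, replicate 1 was the lowest array in 38 of the 76 members of at least 0.1% and in 67 of all 179. That count turned with the scaling, since with 75th percentile scaling replicate 1 was the lowest in 19 of the 179 and the highest in 82. Some brighter miRNAs were low on it as shares. Its log2 difference from the mean of the others was -1.40 for miR-210, -0.67 for miR-1224 and -0.57 for miR-15b. Among dimmer ones, that difference was -1.11 for miR-138 (mean share 0.0237%). miR-93 (0.161% against 0.211% to 0.263%) and miR-106b (0.284% against 0.359% to 0.435%), from 1 transcript, were low together. miR-221 (0.497% against 0.282% to 0.319%) and miR-494 (0.261% against 0.131% to 0.148%) were higher on replicate 1. miR-210 and miR-15b were lowest on replicate 1 under every scaling run. miR-1224 was not with 75th percentile scaling, and with quantile scaling replicates 1 and 3 tied for its lowest value.

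**Figure D5:**
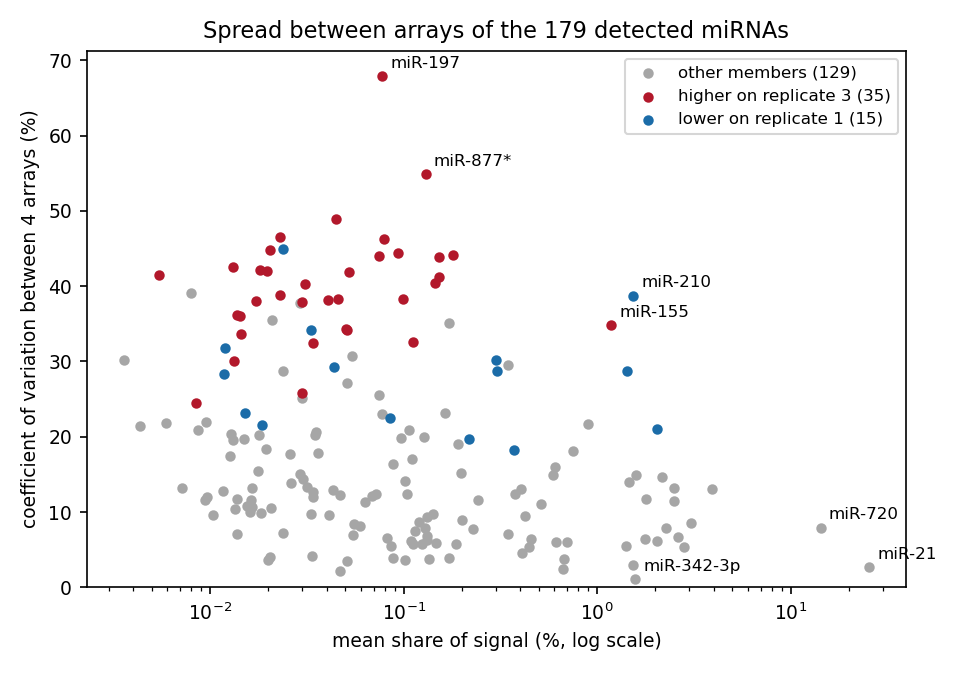
Coefficient of variation between the 4 untreated arrays (percent) against mean share of signal (percent, log axis) of the 179 detected miRNAs, 1 point each. Red points are the 35 chosen as higher on replicate 3, and blue points are the 15 further ones lower on replicate 1, both by over 0.5 in log2 against the mean of the other arrays. miR-21 lies at a CV of 2.71% and miR-197 at 67.9%.

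The replicates also sat in different rows of the slide, 1 and 4 in the first row and 2 and 3 in the second. The mean share of miR-21 was 26.0% in the first row and 24.9% in the second. The arrays in a row are also different samples, so that row and sample cannot be told apart.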

How the data were processed

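Total RNA of 4 untreated samples was hybridised in 1 colour to mouse miRNA arrays. Per the file headers, the authors' scanner output comes from Feature Extraction 9.5.3.1. Its deposited spot and total gene signals are intensity values without scaling between arrays. limma is named in the submitters' processing notes, with no version or use stated. The authors' deposited series table matched these intensities in 1024 of 1024 untreated values within 0.1%. Its 4 columns of other samples were not used.

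Signals at or below 0 were set to 0, and each miRNA's share was taken of the sum over 567 mouse miRNAs. Control and viral features stayed outside the sum. Functions were tested on simulated data. Alternatives were other probe summaries, backgrounds (limma 3.58.1 in R 4.3.3, normexp, offset 50), scalings, filters, denominators and leaving out each array. Python 3.11.15 and matplotlib 3.10.9 were used. Old names were matched by hand to RefSeq.

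Members and lists were chosen with earlier results of these data known. Named miRNAs are the 20 of highest mean share, all myeloid ones, up to 4 detected ones of each other list, the extremes of CV and of the detection edge, the 5 brightest star arms with their partners, and control or viral features detected on all 4. Others, such as family and group members, star pairs and miRNAs high or low on 1 array, were named after their values were seen. The number of arrays limits the precision.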

Additional observations from a re-analysis of the deposited data

Results flagged for a closer look

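Dixon's ratio was computed for 73 measures in the 4 untreated arrays (68 named miRNAs and 5 array totals), and 9 had a sample far from the others. Chance flags about 1 in 20 groups, but the count cannot be read against that, since 4 of the 9 are among the 5 miRNAs named for the highest CVs. On replicate 3, miR-877* (0.236% of signal against 0.0881% to 0.105%), miR-574-3p (0.299% against 0.127% to 0.153%), miR-466g (0.251% against 0.107% to 0.132%) and miR-574-5p (0.233% against 0.110% to 0.128%) were high. miR-23a was low there (2.58% against 2.86% to 2.90%). The summed signal of that array was also the highest, at 82277 units against 70297 to 71742. miR-10a was high on replicate 4 (0.125% against 0.0839% to 0.0892%), and miR-140* was low on replicate 1 (0.119% against 0.135% to 0.136%). Replicate 2 had the most miRNAs detected, 203 against 191 to 193.

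A signal also appeared outside the mouse miRNAs. The probes for mghv-miR-M1-2, a miRNA of a mouse gammaherpesvirus, were flagged as detected on all 4 untreated arrays with a mean of 24.999 ± 10.9 units (SD, n = 4). The negative control feature was detected on none, with 9.93 ± 3.34. Of the other 9 viral miRNAs, none was detected on more than 1 array. The control features hur_1, hur_2, hur_4, hur_6 and mr_1 and the bright corner of the slide were also detected on all 4. What the probes read was not tested.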

How the results depend on the processing

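Of 62 recomputed values, 50 moved by less than 1 SD between arrays (for the median CV, between the sets of 3 arrays) or, for counts, by less than 1.5 times. Leaving out each array gave 179 to 182 detected miRNAs, 60.6% to 62.1% for the first 10, 5 to 6 miRNAs for 50% of the signal, a median CV of 12.1% to 15.8% (12.1% without replicate 1), 30.4% to 31.3% in shared seeds, 65.0% to 65.6% in groups by position and 69 to 70 detected list members. With control features in the sum, the first 10 mouse miRNAs held 10.99%, and 1 control feature alone reached 50%. Normexp with offset 50, which adds a constant to every probe, bright or dim, gave 38.5%, 21 miRNAs and a CV of 5.02%. With the offset taken off again, an alternative chosen after seeing the data, the first 10 held 56.6% and the CV was 10.6%. Without entries linked to other RNA classes, also chosen afterwards, the first 10 held 57.7%. The median CV was 17.2% after 75th percentile scaling and 22.4% with no filter on detection, and joining neighbours within 50 kb gave 67.0%. The causes were not tested beyond this. No paired analysis was possible because the results come from 1 group and from no test.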
